A study of Gallus gallus with 18 samples.

Results

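The response of the chicken retinal pigment epithelium (RPE) to retinectomy plus FGF2 was compared between 2 stages of development, embryonic day 5 (E5, Hamburger Hamilton stage 26) and embryonic day 4 (E4, stage 24). The quantity examined for each gene is the interaction, defined as the log2 difference between 6hPR + FGF2 and developing RPE at E5 minus the same log2 difference at E4. It uses 12 of the 18 mRNA-seq libraries of the series, 3 in each of 4 groups, and was tested over 18287 of the 18336 genes in the table of normalized counts. The 4 groups are E5 6hPR + FGF2 (RPE collected 6 h after surgical removal of the neural retina, with heparin beads carrying bovine FGF2 placed in the eye cup at surgery), E5 developing (RPE of unoperated eyes), E4 6hPR + FGF2 and E4 developing. The remaining 6 libraries are RPE collected 6 h after retinectomy without FGF2 (6hPR) at each stage. They are not in the contrast, but the fit included them for the shared estimate of the spread. Their levels and stage differences are given beside the results. Each library is a pool of 3 sheets of RPE, so that n counts pools. No genetic change is named for any embryo, and all came from White Leghorn eggs of Michigan State University by the labels, whereas the study's methods give SPAFAS pathogen-free eggs from Charles River for RNA-seq. Since the developing groups had neither surgery nor beads, the contrast holds injury and FGF2 together, and their parts cannot be told apart within it. The library titles and methods text do not say whether developing RPE matched the age at surgery or the age 6 h later. Up to 6 h of development may therefore be part of each response too, which was not tested.

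The RPE is the pigmented monolayer behind the neural retina, and both layers arise from the optic vesicle. FGF signals favour a neural retina fate and restrict the RPE factor MITF, and WNT and BMP signals take part in specifying RPE. For a short time in development the chick RPE can be turned into neural retina when the retina is removed and FGF2 is supplied, a capacity that it has at E4 and has lost by E5. The interaction asks which genes answered the same operation differently on either side of that change.

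The 12 libraries held 51.8 to 73.0 M reads on genes, and the 8 genes used to check for RPE (*MITF*, *OTX2*, *PMEL*, *TYR*, *TYRP1*, *DCT*, *RLBP1* and *BEST1*) were detected in each of them. The libraries did not scatter equally around their group means. Taken over genes averaging at least 50 normalized counts, the SD of a group on the log2 scale had a median of 0.09 in E5 6hPR + FGF2, 0.26 in E5 developing, 0.16 in E4 6hPR + FGF2 and 0.12 in E4 developing RPE. E5 developing replicate 2 stood apart for neural retina genes. It held the highest value of all 18 libraries for 19 of 23 markers of retinal neurons and for 8 of 14 markers of retinal progenitors. E5 developing replicate 3 held the highest value for 7 of 10 endothelial and 5 of 20 periocular mesenchyme markers. In bulk samples, fewer cells of a type and less RNA per cell cannot be told apart. *HINTW*, a gene of the female-specific chromosome W, reached 20330 or more in 11 of the libraries and 60.4 normalized counts in replicate 3 of E4 6hPR + FGF2 RPE, and it served as a covariate in 1 of the alternatives. Whether any of these differences has a part in a result below was not tested.

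In the interaction, 1016 genes were called, with an adjusted p no higher than 0.05 (limma, Benjamini-Hochberg over the 18287 genes). The E5 response was above the E4 response for 574 genes, 3.14% of those tested, and below it for 442 genes, 2.42%. The median absolute interaction was 1.07 on the log2 scale among the genes with the E5 response above and 1.15 among those with it below, and 316 and 251 of them reached 1 log2 unit, which is a 2-fold difference between the responses. Over all genes tested the median interaction was 0.03. An unadjusted p under 0.05 was reached by 4167 genes. The share called depended on the level of the gene. It was 1.62% in the lowest of 4 equal bins of genes by mean normalized count (0 to 29.9), 5.91% and 7.24% in the next bins and 7.46% in the highest, while the median SE of the interaction was 1.54, 0.41, 0.20 and 0.15 in the same order. A difference between the stages of 1 log2 unit was therefore not detectable for most genes of the lowest bin.

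**Figure D1:**
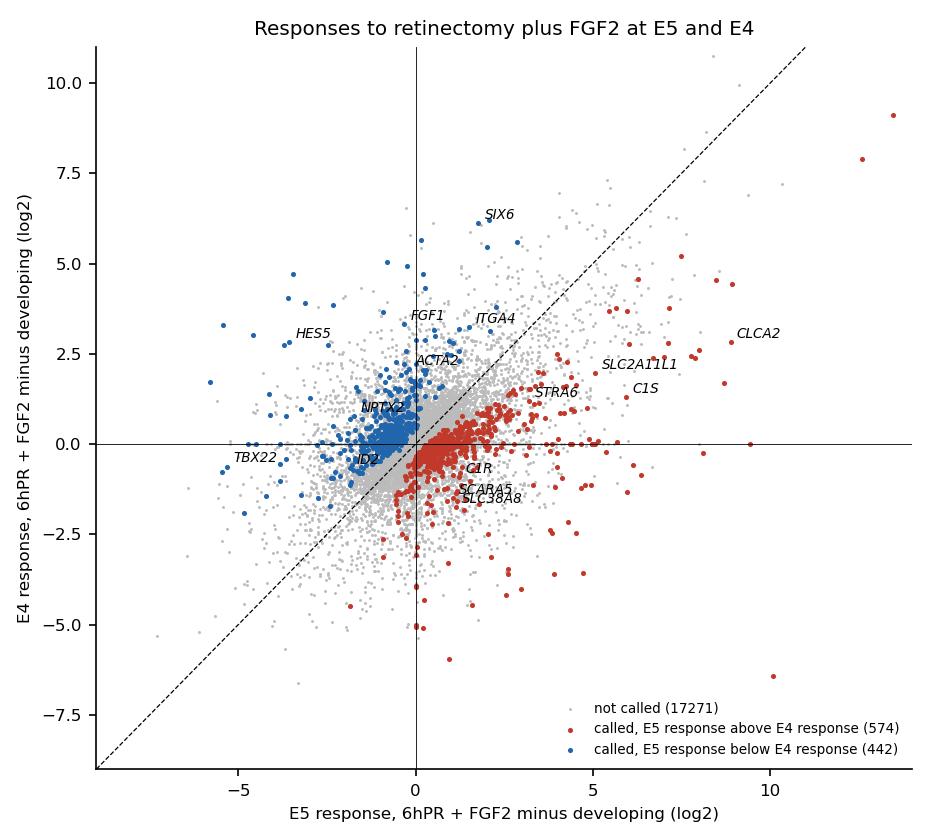
Each point is 1 gene, with its response at E5 on the x axis and its response at E4 on the y axis, both as 6hPR + FGF2 minus developing RPE in log2 units. The 574 genes called with the E5 response above the E4 response (red) lie to the right of the dashed line of equal responses, the 442 called with it below (blue) lie to the left, and genes not called are grey.

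The number of called genes rested on single libraries. Without E5 developing replicate 1 it was 2273, of which 1500 had the E5 response above, and without E4 developing replicate 2 it was 446. Leaving out E5 6hPR + FGF2 replicate 1 or 2 gave 487 and 592, E4 6hPR + FGF2 replicate 1 gave 620 and E4 developing replicate 3 gave 604. Without E5 developing replicate 2, the library with high neural markers, 1063 genes were called, and 819 of them were among the 1016. Counts of gene lists under other fits, given below, go with these totals over all genes tested. Calls above and below were 1500 and 773 without E5 developing replicate 1, and 242 and 204 without E4 developing replicate 2. They were 536 and 527 without E5 developing replicate 2, and 410 and 330 without E5 developing replicate 3. DESeq2 gave 999 and 893, and array weights 1008 and 621.

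**Figure D2:**
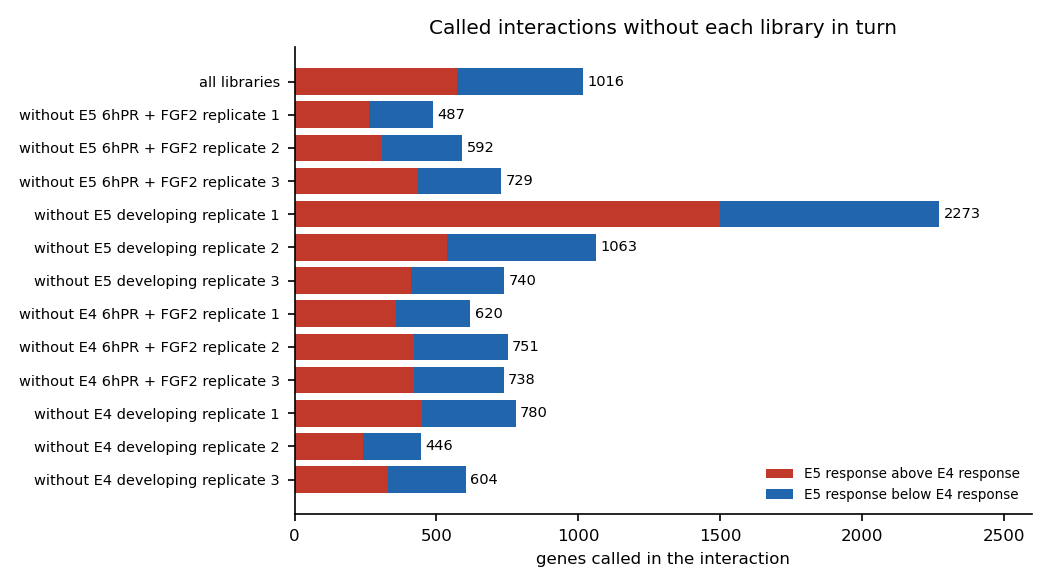
The bars give the number of genes called in the interaction with all libraries (top) and without each of the 12 libraries in turn, red for genes with the E5 response above the E4 response and blue for genes with it below. The count ran between 446 and 2273, and the longest bar is the fit without E5 developing replicate 1.

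Each interaction was read against the responses it is made of. At E5 the response was called for 5261 genes, above developing RPE for 15.1% of the genes tested and below it for 13.7%. At E4 it was called for 3656 genes, above for 9.82% and below for 10.2%. The main fit used a spread shared by all groups, although the groups scattered unequally. With array weights, which weigh libraries by their scatter, 5664 genes were called at E5 and 4952 at E4, so the counts lay closer together. The counts were 5005 and 3517 with edgeR, and 5798 and 4260 with DESeq2. The classes that follow, among them the calls at E5 only, rest on the main fit. Of the 574 genes with the E5 response above the E4 response, 324 had a rise called at E5 and no call at E4, 107 had a fall called at E4 and no call at E5, 90 rose at both stages with the larger rise at E5, 33 rose at E5 and fell at E4, 11 fell at both stages with the smaller fall at E5, and 9 had neither response called. Of the 442 with the E5 response below, 244 had a fall called at E5 and no call at E4, 110 had a rise called at E4 and no call at E5, 32 fell at both stages with the larger fall at E5, 32 fell at E5 and rose at E4, 16 rose at both stages with the smaller rise at E5, and 8 had neither called. Opposite called responses were therefore held by 65 genes, and 149 were called in the same direction at both stages with different size.

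The same genes can be sorted by the condition in which the stages differed. In 6hPR + FGF2 RPE, the stage difference was called with E5 above E4 for 16.7% and with E5 below E4 for 12.8% of all genes tested. In developing RPE it was called with E5 above E4 for 10.8% and with E5 below E4 for 11.1%. Among the 1016 genes, the stages differed only in 6hPR + FGF2 RPE for 443, only in developing RPE for 374, in both for 182 and in neither for 17. The 2 directions of the interaction were split differently. Of the genes with the E5 response above, 323 were higher at E5 in 6hPR + FGF2 RPE only, 146 were lower at E5 in developing RPE only, and 65 were higher at E5 in 6hPR + FGF2 RPE but lower at E5 in developing RPE. Of the genes with the E5 response below, 120 were lower at E5 in 6hPR + FGF2 RPE only, 228 were higher at E5 in developing RPE only, and 58 were lower at E5 in 6hPR + FGF2 RPE but higher at E5 in developing RPE. These classes were formed on the same values as the interaction and are a description.

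**Figure D3:**
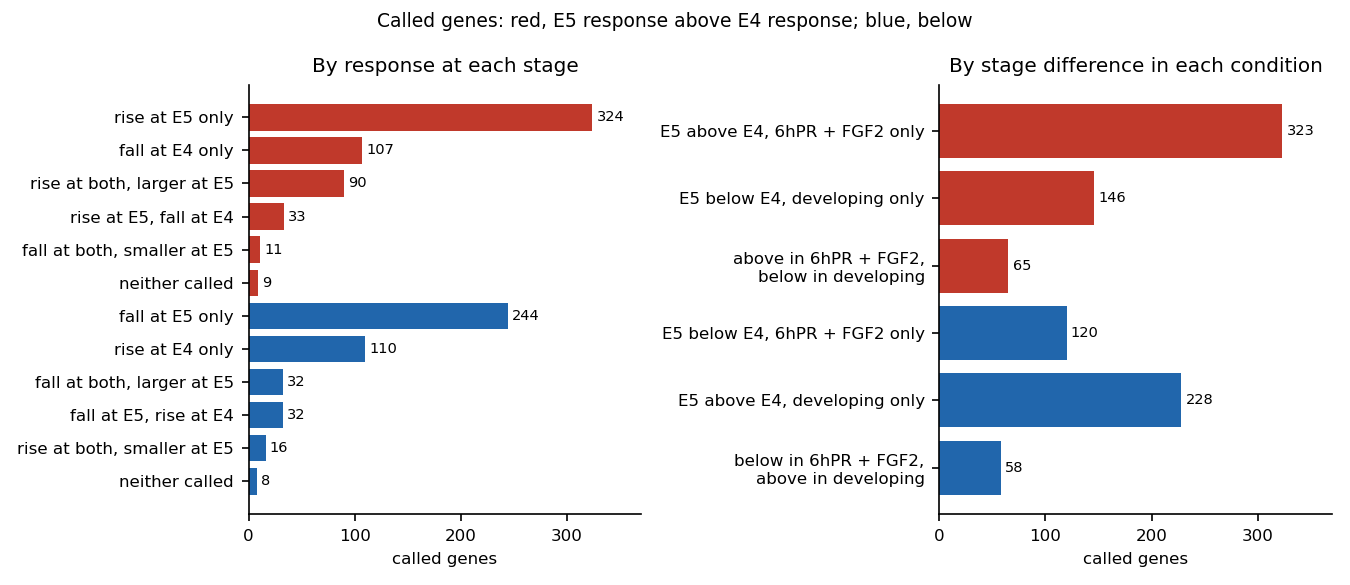
Bars give the number of called genes in each class, with genes whose E5 response was above the E4 response in red and those with it below in blue. The left panel sorts them by the called response at each stage and the right panel by the condition in which E5 and E4 differed. The longest bars are the 324 genes with a rise at E5 only and the 323 genes higher at E5 in 6hPR + FGF2 RPE only.

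The 6hPR libraries are not in the contrast, although they entered the estimate of its spread. They show these genes after retinectomy without FGF2. Their stage difference was called with E5 above E4 for 11.3% and with E5 below E4 for 8.41% of all genes tested. Of the 323 genes that were higher at E5 in 6hPR + FGF2 RPE only, 80 (24.8%) were also higher at E5 after 6hPR and 4 were lower, and their median stage difference was 1.02 in 6hPR + FGF2, 0.19 in 6hPR and -0.09 in developing RPE. Of the 228 that were higher at E5 in developing RPE only, 66 (28.9%) were higher at E5 after 6hPR and 2 were lower, with median stage differences of -0.14 in 6hPR + FGF2, 0.31 in 6hPR and 1.07 in developing RPE. Of the 146 that were lower at E5 in developing RPE only, 33 (22.6%) were lower and 12 higher at E5 after 6hPR, and of the 120 that were lower at E5 in 6hPR + FGF2 RPE only, 27 (22.5%) were lower and 1 was higher. In each of the 4 classes the 6hPR median lay between those of the other 2 conditions. The classes were chosen on the values of those 2 conditions, and in each class their medians lie on opposite sides of 0. The 6hPR median over all genes was 0, so the choice of genes alone can give this order. Nothing is concluded from it.

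Among genes with the larger rise at E5, the smallest adjusted p belonged to *SLC2A11L1*, a member of the facilitative glucose transporter family. It had 5407, 5109.8 and 5438 normalized counts in E5 6hPR + FGF2 RPE against 157, 135 and 186 in E5 developing RPE. At E4 it had 2127, 1461 and 1346 in E4 6hPR + FGF2 RPE against 382, 425 and 423 in E4 developing RPE. Every operated library lay above every developing one at each stage, and the E5 response was 5.07 against 1.97 at E4 on the log2 scale (interaction 3.09 ± 0.24, adjusted p = 2.7e-05; ± gives SE at interactions and SD over 3 libraries at means). *PARP9*, an ADP-ribosyltransferase family member known from interferon responses, showed the same form. It had 2748, 2459 and 2391 normalized counts in E5 6hPR + FGF2 RPE against 626, 568 and 633 in E5 developing RPE, and 863, 730.3 and 638 in E4 6hPR + FGF2 RPE against 513, 515 and 495 in E4 developing RPE. The E5 6hPR + FGF2 libraries stood above all the others, with an interaction of 1.52 ± 0.17, adjusted p = 0.000272.

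Among the genes named here with the E5 response above, the largest interaction was that of *CLCA2*, a regulator of calcium-activated chloride conductance. It had 309, 229 and 185 normalized counts in E5 6hPR + FGF2 RPE against 0, 0 and 0 in E5 developing RPE, and 114, 93.8 and 51.8 in E4 6hPR + FGF2 RPE against 9.77, 15.8 and 8.88 in E4 developing RPE. At E5 this is at least 73.8-fold higher in 6hPR + FGF2 RPE, with the developing libraries set to a floor of 3 counts each, and the interaction was 6.05 ± 0.64, adjusted p = 0.000272 with a size that depends on the pseudocount. *C6orf58* and *OLFM4*, an olfactomedin, were also at 0 in each E5 developing library and at least 939-fold and 34.7-fold higher in E5 6hPR + FGF2 RPE, with interactions of 4.67 and 5.33. *C6orf58* rose strongly at E4 too, from 4.29 ± 3.06 in developing to 1122 ± 613 in 6hPR + FGF2 RPE. *OLFM4* averaged 0 ± 0 and 4.56 ± 5.40 in the same E4 groups. With a pseudocount of 5 the interactions were 2.43 for *C6orf58* and 3.73 for *OLFM4*. Their calls were not kept throughout, since *C6orf58* was lost with edgeR (adjusted p up to 0.0557) and *OLFM4* was lost under the filter on a mean of 10 and with edgeR and with DESeq2 (adjusted p up to 1). *CPLX3*, a complexin of ribbon synapses, had 62.8, 89.4 and 44.8 normalized counts in E5 6hPR + FGF2 RPE against 0, 7.002 and 0 in E5 developing RPE, and 18.9, 9.57 and 6.47 in E4 6hPR + FGF2 RPE against 10.7, 13.1 and 7.26 in E4 developing RPE. Its rise was called at E5 and not at E4 (interaction 5.62 ± 1.15, adjusted p = 0.0121). With a pseudocount of 5 the interaction of *CPLX3* was 3.29.

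Both serine proteases of the first complement component were among the called genes. *C1S* had 2201, 2296 and 2633 normalized counts in E5 6hPR + FGF2 RPE against 50.2, 44.01 and 25.6 in E5 developing RPE, and 306, 467 and 256 in E4 6hPR + FGF2 RPE against 221, 155 and 71.0 in E4 developing RPE. It rose at both stages, by 5.93 at E5 and 1.30 at E4 on the log2 scale (interaction 4.63 ± 0.53, adjusted p = 0.000272). *C1R* had 2137, 1851 and 2003 normalized counts in E5 6hPR + FGF2 RPE against 1024, 869 and 696 in E5 developing RPE, and 871, 929 and 798 in E4 6hPR + FGF2 RPE against 1569.8, 1710.0 and 1601 in E4 developing RPE. Here the responses were opposite, a rise at E5 (adjusted p = 7.9e-06) and a fall at E4 (adjusted p = 0.000228), and the groups did not overlap at either stage (interaction 2.14 ± 0.19, adjusted p = 6.3e-05). After retinectomy alone *C1R* averaged 983 ± 19.4 in E5 6hPR RPE and 1058 ± 180.0 in E4 6hPR RPE (SD, n = 3 each).

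*CALN1*, a neuronal calcium-binding protein, had a rise called at E5 only (interaction 4.24 ± 0.71, adjusted p = 0.00368). *C15orf48*, a paralog of a cytochrome c oxidase subunit, rose at both stages and further at E5 (interaction 3.91 ± 0.86, adjusted p = 0.0168). The microRNA gene *gga-mir-147* had an interaction of 4.47, lost with edgeR (adjusted p up to 0.102), and reads of a microRNA gene in an mRNA library can come from an overlapping host transcript. The protease genes *MMP9*, a gelatinase that degrades matrix, and *TMPRSS7*, a membrane serine protease, had interactions of 4.35 and 4.31. *MMP9* was at least 1741-fold higher in E5 6hPR + FGF2 RPE than in E5 developing RPE, where each library was at 0. It rose strongly at E4 too, from 5.01 ± 4.89 in developing to 1879 ± 1016 in 6hPR + FGF2 RPE, a response of 9.12 on the log2 scale. Its stage difference in 6hPR + FGF2 RPE was not called, and with a pseudocount of 5 its interaction was 2.58. The call of *MMP9* was lost without each of 8 of the 12 libraries in turn (adjusted p up to 0.0822) and in a fit of the 12 libraries alone and with edgeR (adjusted p up to 0.0999). *TMPRSS7* averaged 114 ± 47.8 in E5 6hPR + FGF2 RPE and 1.33 ± 2.31 in E5 developing RPE. At E4 it averaged 206 ± 48.7 in 6hPR + FGF2 RPE and 38.6 ± 2.84 in developing RPE. Its interaction was 1.95 with a pseudocount of 5, and its call was lost in a fit of the 12 libraries alone (adjusted p up to 0.0512). *FAM237A*, with a rise called at E5 only (4.76), was lost without each of 8 of the 12 libraries in turn (adjusted p up to 0.0786) and under 3 of the 13 other settings (adjusted p up to 0.0915). *RIPPLY3*, a T-box co-repressor, had neither response called and an interaction of 4.53, which was lost without each of 9 of the 12 libraries in turn (adjusted p up to 0.124) and under 5 of the 13 other settings (adjusted p up to 0.122).

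A set of 33 genes rose at E5 and fell at E4. *SCARA5*, a scavenger receptor that takes up ferritin, had 392.5, 422 and 467 normalized counts in E5 6hPR + FGF2 RPE against 187, 209 and 224 in E5 developing RPE, and 309.6, 455 and 371 in E4 6hPR + FGF2 RPE against 1032, 1039.6 and 1079 in E4 developing RPE. The 3 E4 developing libraries were higher than the other 9, and the interaction was 2.53 ± 0.27, adjusted p = 0.000272. *SLC38A8*, a glutamine transporter of the eye, had 2844, 2685 and 2534 normalized counts in E5 6hPR + FGF2 RPE against 2867, 1016 and 618 in E5 developing RPE, and 2158, 2036 and 2379 in E4 6hPR + FGF2 RPE against 8359, 7704 and 6117 in E4 developing RPE. In this gene E5 developing replicate 1 was at the level of the E5 6hPR + FGF2 libraries and the other 2 below them, while the E4 groups did not overlap (interaction 2.89 ± 0.55, adjusted p = 0.00837). *SYT12*, a synaptotagmin, and *FERMT1*, the integrin activator kindlin-1, moved likewise with interactions of 2.55 ± 0.30, adjusted p = 0.000336 and 1.14 ± 0.13, adjusted p = 0.000272. *CPS1*, the entry enzyme of the urea cycle, and the receptor phosphatase *PTPRU* had interactions of 1.63 and 1.52. Their calls were less firm, *CPS1* being lost without each of 5 of the 12 libraries in turn (adjusted p up to 0.0648) and *PTPRU* without each of 5 of the 12 libraries in turn (adjusted p up to 0.0648) and in a fit of the 12 libraries alone (adjusted p up to 0.0511).

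Among genes with the E5 response below the E4 response, the fall was in several either larger at E5 or called at E5 only. *C1QTNF12*, a secreted protein of the C1q and TNF related family, had 101.2, 111 and 80.3 normalized counts in E5 6hPR + FGF2 RPE against 1136, 1195 and 1883 in E5 developing RPE, and 309.6, 538 and 416 in E4 6hPR + FGF2 RPE against 787, 795 and 907 in E4 developing RPE. It fell at both stages and further at E5 (interaction -2.81 ± 0.32, adjusted p = 0.000272). *AIFM3*, of the apoptosis-inducing factor family, had 122, 125 and 119 normalized counts in E5 6hPR + FGF2 RPE against 850.0, 576 and 843 in E5 developing RPE, and 262, 194 and 166 in E4 6hPR + FGF2 RPE against 237, 277 and 257 in E4 developing RPE. The E5 developing libraries were the high group, and only the fall at E5 was called (interaction -2.28 ± 0.26, adjusted p = 0.000272). *OLFM3*, an olfactomedin (-1.35 ± 0.15, adjusted p = 0.000272), *FADS2*, a fatty acid desaturase (-0.88 ± 0.10, adjusted p = 0.000272), and *CAVIN4*, a protein of muscle caveolae (-1.37 ± 0.18, adjusted p = 0.000717), had the same form. *TBX22*, a T-box factor of craniofacial mesenchyme, had 33.7, 18.3 and 42.7 normalized counts in E5 6hPR + FGF2 RPE against 1559.8, 3015 and 371 in E5 developing RPE, and 125, 79.4 and 61.5 in E4 6hPR + FGF2 RPE against 205, 163 and 67.0 in E4 developing RPE. All E5 developing libraries were above the other 9 but spread over a wide range (interaction -4.69 ± 0.93, adjusted p = 0.0105). *RXFP1*, the relaxin receptor, gave -3.28 ± 0.59, adjusted p = 0.00634. The musculin gene *MSC* (-3.24) and *SLITRK3* (-3.09), a synaptic adhesion protein, belonged here too, with calls lost without replicate 2 of E4 developing RPE or replicate 2 of E4 6hPR + FGF2 RPE or replicate 3 of E4 6hPR + FGF2 RPE (adjusted p up to 0.0601) and in a fit of the 12 libraries alone (adjusted p up to 0.0557) for *MSC* and without each of 8 of the 12 libraries in turn (adjusted p up to 0.0779) and in a fit of the 12 libraries alone (adjusted p up to 0.0513) for *SLITRK3*.

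The 32 genes that fell at E5 and rose at E4 included *NPTX2*, a neuronal pentraxin. It had 96.5, 75.0 and 95.6 normalized counts in E5 6hPR + FGF2 RPE against 323, 247 and 320.0 in E5 developing RPE, and 224, 356 and 259 in E4 6hPR + FGF2 RPE against 169, 148 and 164 in E4 developing RPE. The groups did not overlap at either stage (interaction -2.51 ± 0.29, adjusted p = 0.000272). *IL15*, a cytokine that acts on lymphocytes, had 107, 86.5 and 35.6 normalized counts in E5 6hPR + FGF2 RPE against 178, 221 and 272 in E5 developing RPE, and 148, 124 and 102 in E4 6hPR + FGF2 RPE against 52.8, 44.6 and 29.05 in E4 developing RPE. The order of the groups was reversed between the stages with no overlap (interaction -3.25 ± 0.53, adjusted p = 0.00334). *GUCY1A1*, a subunit of the nitric oxide receptor, gave -2.08 ± 0.27, adjusted p = 0.000864, *BAIAP2L1*, a membrane curvature protein, -1.75 ± 0.23, adjusted p = 0.001, *MYL4*, a myosin light chain, -2.36 ± 0.36, adjusted p = 0.00222, and *CHAC1*, an enzyme of glutathione breakdown induced by ER stress, -2.58 ± 0.40, adjusted p = 0.00229. Each of these 4 kept its call without each library in turn and under each of the 13 other settings.

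A rise at E4 that was not called at E5 was seen for *FGF1*, a ligand of the FGF receptors. It had 34.7, 64.4 and 82.4 normalized counts in E5 6hPR + FGF2 RPE against 81.5, 42.0 and 106 in E5 developing RPE, and 82.9, 76.6 and 110.0 in E4 6hPR + FGF2 RPE against 10.7, 9.63 and 5.65 in E4 developing RPE. The E4 developing libraries were the low group and the E5 groups overlapped (interaction -3.65 ± 0.63, adjusted p = 0.00447). Of 31 genes tested in the list of FGF receptors and feedback genes, *FGF1* was the only 1 called with all libraries and the main limma settings (3.23% against 2.42% of all genes). With DESeq2, 4 were called below. Without E5 developing replicate 1 there were 2 below, and without E4 6hPR + FGF2 replicate 1 there was 1 above. The response itself was called above developing RPE for 15 of the list at E5 and 17 at E4 (15.1% and 9.82% of all genes). The list had a median response of 0.54 at E5 and 0.77 at E4, and a median interaction of -0.04 against 0.03 over all genes. *RGS5*, a regulator of G protein signalling known from pericytes, had an interaction of -4.52 that was lost in a fit of the 12 libraries alone (adjusted p up to 0.0536). *MYBPC1*, a myosin-binding protein, averaged 75.6 ± 8.99 in E5 6hPR + FGF2 RPE and 86.5 ± 75.6 in E5 developing RPE, and 26.8 ± 13.4 in E4 6hPR + FGF2 RPE and 0 ± 0 in E4 developing RPE, with a rise called at E4 only, and its interaction of -5.51 was lost without each of 9 of the 12 libraries in turn (adjusted p up to 0.0692) and under 1 of the 13 other settings (adjusted p up to 0.0692). *KK34*, with a fall called at E5 only and 0 in each E4 developing library, had an interaction of -8.74 that was lost without each of 8 of the 12 libraries in turn (adjusted p up to 0.0882) and under 4 of the 13 other settings (adjusted p up to 0.062).

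**Figure D4:**
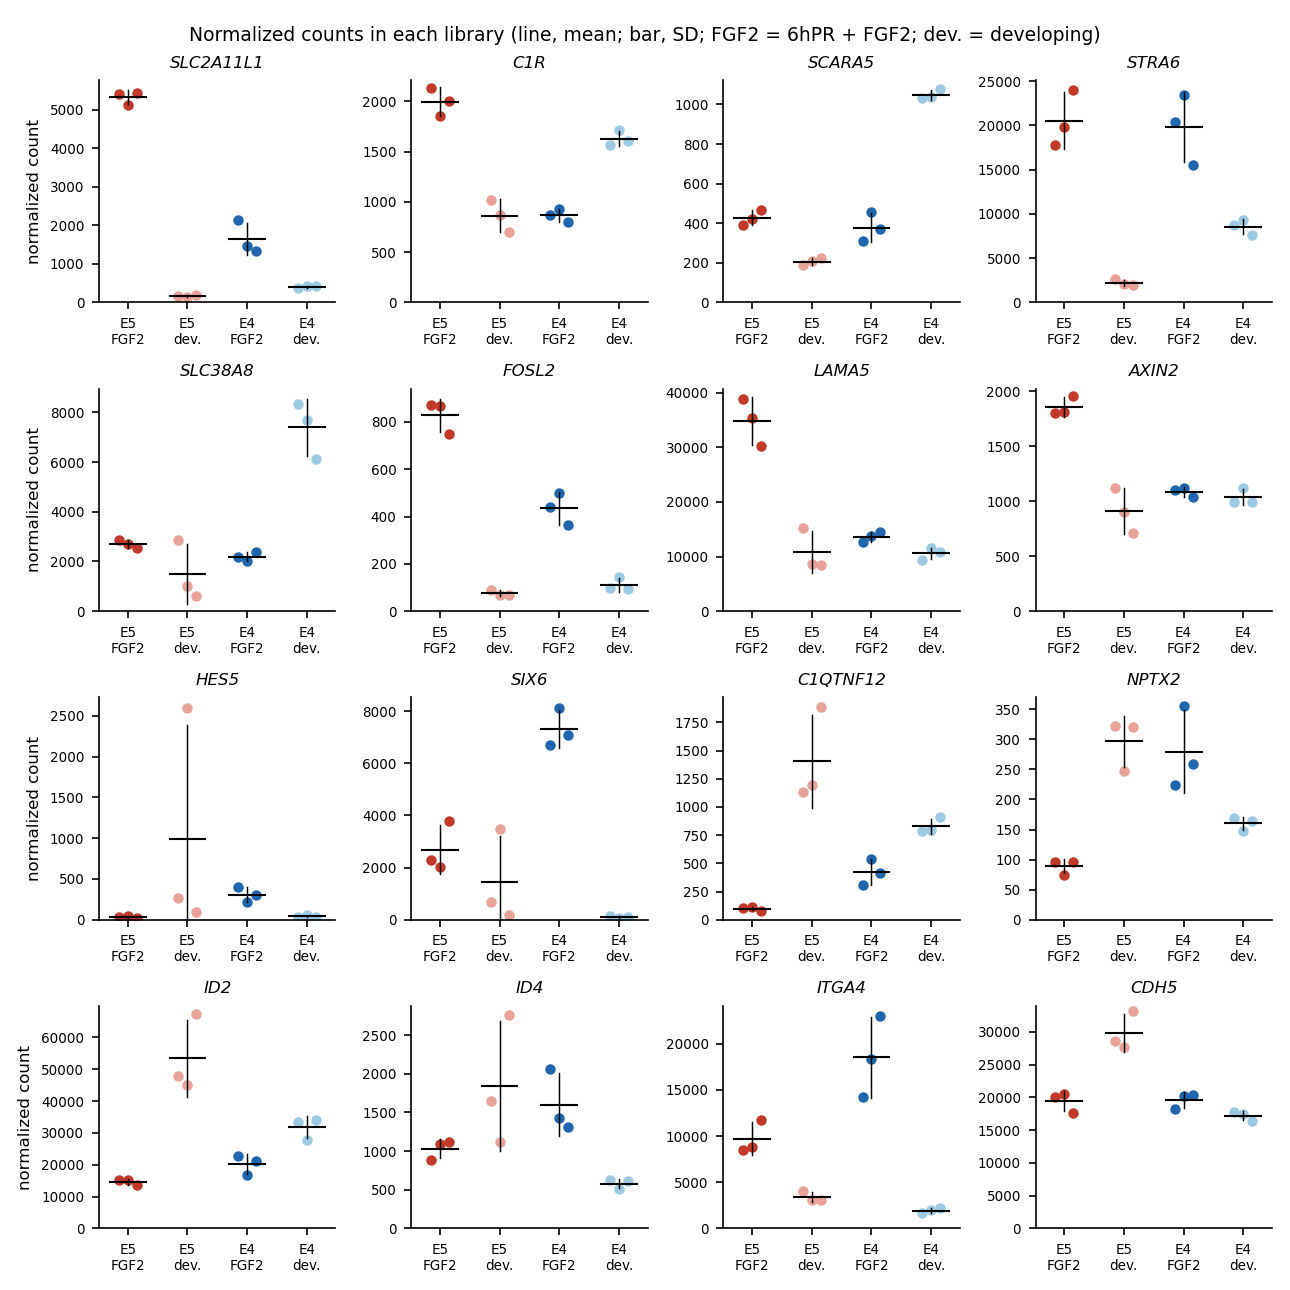
Each panel shows the normalized counts of 1 gene in the 12 libraries, with E5 6hPR + FGF2, E5 developing, E4 6hPR + FGF2 and E4 developing RPE from left to right, 1 point a library, a line at the mean and a bar of 1 SD to each side (n = 3, linear axis from 0, where the bars of *HES5* and *SIX6* are cut). *SLC2A11L1*, *FOSL2*, *LAMA5* and *AXIN2* are highest in E5 6hPR + FGF2 RPE, *SCARA5* and *SLC38A8* in E4 developing RPE, *C1QTNF12*, *ID2* and *CDH5* in E5 developing RPE, and *HES5* has 1 E5 developing library, replicate 2, far above the other 11.

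Of the ID genes, targets of BMP signalling whose products block bHLH factors, *ID2*, *ID3* and *ID4* had their E5 response below the E4 response. *ID2* had 15049, 15249.7 and 13572 normalized counts in E5 6hPR + FGF2 RPE against 47955, 45083 and 67235 in E5 developing RPE, and 22743, 16643 and 21254 in E4 6hPR + FGF2 RPE against 33532, 27909.7 and 34109 in E4 developing RPE. It fell at both stages, with responses of -1.85 at E5 and -0.66 at E4 on the log2 scale (interaction -1.19 ± 0.21, adjusted p = 0.00517). *ID4* had 889, 1093 and 1115 normalized counts in E5 6hPR + FGF2 RPE against 1642, 1112 and 2765 in E5 developing RPE, and 2064, 1429 and 1311 in E4 6hPR + FGF2 RPE against 622, 508 and 609 in E4 developing RPE. All E4 6hPR + FGF2 libraries were above the E4 developing ones, whereas E5 developing replicates 1 and 3 were above the E5 6hPR + FGF2 libraries and replicate 2 lay among them (interaction -2.18 ± 0.37, adjusted p = 0.00436). *ID3* averaged 7648 ± 341 in E5 6hPR + FGF2 RPE and 13445 ± 3845 in E5 developing RPE, and 13694 ± 2615 in E4 6hPR + FGF2 RPE and 9858 ± 272 in E4 developing RPE, with a fall called at E5 only (interaction -1.24 ± 0.23, adjusted p = 0.00666). Without E5 developing replicate 2 the interactions were -1.30, adjusted p = 0.0034 for *ID2*, -2.49, adjusted p = 0.000947 for *ID4* and -1.37, adjusted p = 0.00374 for *ID3*. In the list of 29 BMP and ID genes tested, 5 were called below and 2 above (17.2% and 6.90% against 2.42% and 3.14% of all genes), and the median interaction was 0.02. The antagonist *CHRD* (-1.11), the modulator *TWSG1* (-0.62) and the ligand *BMP6* (1.02) were called too, and each lost its call without 8 or more of the 12 libraries in turn. Without single libraries the list's counts ran from 3 to 8 below, with the fewest without E4 developing replicate 2 and the most without E5 developing replicate 2, and from 1 to 4 above, with the most without E5 developing replicate 1.

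Among 59 WNT and hedgehog genes, 5 were called with the E5 response above (8.47% against 3.14% of all genes) and 3 below (5.08% against 2.42%). *AXIN2*, a feedback target of beta-catenin signalling, had 1800.3, 1813 and 1963 normalized counts in E5 6hPR + FGF2 RPE against 1125, 898 and 712 in E5 developing RPE, and 1101, 1124 and 1038 in E4 6hPR + FGF2 RPE against 989.6, 1123 and 997 in E4 developing RPE. It was higher in E5 6hPR + FGF2 RPE than in the other 9 libraries (interaction 0.98 ± 0.18, adjusted p = 0.00654). *NKD1*, another feedback inhibitor of the pathway, rose at E5 and fell at E4 with an interaction of 1.30 ± 0.28, adjusted p = 0.0163. After retinectomy alone, *AXIN2* averaged 1901 ± 99.8 in E5 6hPR RPE and 1808 ± 133 in E4 6hPR RPE and *NKD1* averaged 1350.0 ± 268 in E5 6hPR RPE and 1526 ± 225 in E4 6hPR RPE (SD, n = 3 each). The ligands *WNT5A* and *WNT2B* fell at E4, with no call at E5, and had interactions of 1.80 and 2.47. These were lost without each of 4 of the 12 libraries in turn (adjusted p up to 0.0608) for *WNT5A* and without each of 8 of the 12 libraries in turn (adjusted p up to 0.0725) for *WNT2B*. *WIF1*, a secreted WNT inhibitor (2.50), the receptor *FZD4* (-0.78), the WNT antagonist *SFRP1* (-0.99) and the hedgehog co-receptor *CDON* (-0.76) were called with all libraries and lost their calls without 8 or 9 of them in turn. The count above was 2 without E4 developing replicate 2 and 10 without E5 developing replicate 1, where 242 and 1500 of all genes were called above. The count below was 0 without E4 developing replicate 1 and 5 without E5 developing replicate 2, where 331 and 527 of all genes were called below.

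Genes of retinoid handling were called in both directions, 2 above and 2 below of 20 tested (10% each way against 3.14% and 2.42% of all genes), with 1 below without E4 developing replicate 2. The list's median interaction was -0.61, with median responses of -0.53 at E5 and 0.07 at E4. With DESeq2, 6 were called below and 2 above. *STRA6*, the receptor for retinol uptake that is abundant in mature RPE, had 17802, 19808 and 24022 normalized counts in E5 6hPR + FGF2 RPE against 2622, 2131 and 1971 in E5 developing RPE, and 20409, 23388 and 15577 in E4 6hPR + FGF2 RPE against 8763, 9272 and 7619.9 in E4 developing RPE. The levels after the operation overlapped between the stages, and the developing libraries were lower at E5 than at E4 (interaction 2.00 ± 0.26, adjusted p = 0.000758). After retinectomy alone it averaged 47098 ± 7060.1 in E5 6hPR RPE and 28116 ± 6737 in E4 6hPR RPE (SD, n = 3 each). *RXRA*, a nuclear receptor for retinoids, had an interaction of 0.99 ± 0.21, adjusted p = 0.0137, with the rise called at E5 only. *RARRES1*, a gene induced by retinoids, fell at E5 only (interaction -1.49 ± 0.27, adjusted p = 0.00643). *ALDH1A2*, which makes retinoic acid, had an interaction of -1.20, lost without replicate 2 of E4 developing RPE (adjusted p up to 0.053) and in a fit of the 12 libraries alone (adjusted p up to 0.0525). In the list of 22 visual cycle and mature RPE genes, *STRA6* and *LRAT*, the retinol esterifying enzyme, were called above and none below. These shares are 9.09% and 0% against 3.14% and 2.42% of all genes. The list's median interaction was -0.20, with median responses of -0.37 at E5 and 0.13 at E4. With DESeq2, 4 of its genes were called below. *LRAT* averaged 113 ± 48.7 in E5 6hPR + FGF2 RPE and 23.7 ± 1.58 in E5 developing RPE, and its interaction of 1.91 was lost without each of 10 of the 12 libraries in turn (adjusted p up to 0.107) and in a fit of the 12 libraries alone (adjusted p up to 0.0629). The 20 melanin and melanosome genes gave 1 call, below (5% against 2.42% of all genes). The list's median interaction was 0.18, with median responses of -0.38 at E5 and -0.73 at E4. Under array weights, and likewise without E5 developing replicate 1, 3 of its genes were called above. The 1 call with all libraries was *OCA2*, a melanosomal transporter. It fell at both stages and further at E5 (interaction -0.92 ± 0.21, adjusted p = 0.0182), and was lost without replicate 2 of E4 developing RPE or replicate 1 of E5 6hPR + FGF2 RPE (adjusted p up to 0.0577).

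Of 11 RPE identity factors tested, 4 were called with the E5 response above (36.4% against 3.14% of all genes) and none below. The list's median interaction was 0.45. In developing RPE, 5 of the 11 were lower at E5 than at E4 and 0 were higher (11.1% and 10.8% of all genes). In 6hPR + FGF2 RPE, 3 were lower and 3 higher (12.8% and 16.7% of all genes). *SOX9*, which works with RPE factors on visual cycle genes, had 6698, 6622 and 7405 normalized counts in E5 6hPR + FGF2 RPE against 8973, 7563 and 6435 in E5 developing RPE, and 3519.9, 4519.8 and 4179 in E4 6hPR + FGF2 RPE against 6839, 7595 and 8052 in E4 developing RPE. The fall was called at E4 and not at E5 (interaction 0.75 ± 0.16, adjusted p = 0.0137). The call was lost in a fit of the 12 libraries alone (adjusted p up to 0.0511). *OTX1*, a homeobox factor of the optic vesicle, likewise fell at E4, with an interaction of 1.05 that was lost without replicate 2 of E4 developing RPE or replicate 1 of E5 6hPR + FGF2 RPE or replicate 2 of E5 6hPR + FGF2 RPE (adjusted p up to 0.0523). *ZNF503*, a zinc finger repressor, rose at both stages and further at E5 (interaction 0.84 ± 0.19, adjusted p = 0.0174), and *WNT2B*, given above, was the remaining 1. In developing RPE, *OTX1*, *ZNF503* and *WNT2B* were lower at E5 than at E4, with called stage differences of -0.97, -0.52 and -4.17. In 6hPR + FGF2 RPE the differences were 0.08 and 0.32, neither called, and -1.70 for *WNT2B*, called. *SOX9* had 0.02 in developing RPE, not called, and 0.77 in 6hPR + FGF2 RPE, called. For RPE identity factors the count above was 2 without E4 developing replicate 2, 3 without E5 developing replicate 2 and 5 without E5 developing replicate 1. *MITF*, the factor that drives pigment cell genes, was not called at an adjusted p of 0.0659, but it was called with array weights, in a fit of the 12 libraries alone, with DESeq2 and without E5 developing replicate 1 (adjusted p down to 0.0147). It had 2917, 2848 and 2873 normalized counts in E5 6hPR + FGF2 RPE against 8370.0, 6594 and 5036 in E5 developing RPE, and 1254, 955 and 1317 in E4 6hPR + FGF2 RPE against 5303, 6311 and 6589 in E4 developing RPE. The fall was called at both stages, -1.18 at E5 and -2.38 at E4 on the log2 scale, and their difference was 1.19. *OTX2*, a homeobox factor needed for RPE, had responses of -0.03 at E5 and -0.26 at E4, neither called, and an interaction of 0.23 ± 0.14, adjusted p = 0.346.

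In the list of 17 neural retina specification genes, 3 were called with the E5 response below (17.6% against 2.42%) and none above, and the median response was 0.51 at E5 and 0.75 at E4. *SIX6*, an eye field homeobox gene of retinal progenitors, had 2289, 2007 and 3772 normalized counts in E5 6hPR + FGF2 RPE against 695, 3469.8 and 179.5 in E5 developing RPE, and 6713, 8127 and 7078 in E4 6hPR + FGF2 RPE against 125, 77.0 and 119 in E4 developing RPE. At E4 the groups were far apart, whereas at E5 developing replicates 1 and 3 lay below the 6hPR + FGF2 libraries and replicate 2 among them, and the E5 response was not called. The interaction was -4.34 ± 1.01, adjusted p = 0.022 and was lost without replicate 2 of E4 developing RPE or replicate 1 of E5 6hPR + FGF2 RPE or replicate 2 of E5 6hPR + FGF2 RPE (adjusted p up to 0.0615) and in a fit of the 12 libraries alone (adjusted p up to 0.0661). Without E5 developing replicate 2 it was -3.24, adjusted p = 0.0149. *SIX3*, which represses WNT genes in the eye field, rose at E4 only, and its interaction of -0.75 was lost without each of 5 of the 12 libraries in turn (adjusted p up to 0.0812) and under 2 of the 13 other settings (adjusted p up to 0.0746). The list's count below was 1 without E4 developing replicate 2 and 5 without E5 developing replicate 3.

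The eye field factors *LHX2* and *PAX6* did not pass the test of the interaction. *LHX2* had 5307, 5269 and 6726 normalized counts in E5 6hPR + FGF2 RPE against 4331, 4244 and 4138 in E5 developing RPE, and 6461, 4940.0 and 5333 in E4 6hPR + FGF2 RPE against 2952, 3015 and 3542 in E4 developing RPE. It rose at both stages (interaction -0.38 ± 0.21, adjusted p = 0.306). *PAX6* had 7300.5, 6945 and 8509.6 normalized counts in E5 6hPR + FGF2 RPE against 3973, 6003 and 3114 in E5 developing RPE, and 9845, 9333 and 8408 in E4 6hPR + FGF2 RPE against 8195, 7866 and 7312 in E4 developing RPE. It rose at E5 with no call at E4 (interaction 0.61 ± 0.30, adjusted p = 0.237). *E2F1*, a regulator of entry into S phase, fell at E5 with no call at E4 and had an interaction of -0.84 ± 0.36, adjusted p = 0.18, which was called with the chromosome W covariate (adjusted p = 0.0389). A p above the threshold does not show that these responses were equal.

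Among 30 Notch and proneural genes, 4 were called below and 1 above (13.3% and 3.33% against 2.42% and 3.14% of all genes). *HES5*, a target of Notch, had 38.4, 44.2 and 23.4 normalized counts in E5 6hPR + FGF2 RPE against 269.7, 2598 and 96.5 in E5 developing RPE, and 404, 215 and 305 in E4 6hPR + FGF2 RPE against 37.1, 52.5 and 37.1 in E4 developing RPE. The E4 groups did not overlap, with 6hPR + FGF2 above, and the E5 groups did not overlap, with developing above and 1 of its libraries, replicate 2, far over its group mates. The interaction was -6.38 ± 1.32, adjusted p = 0.0123 with all libraries and -5.05, adjusted p = 0.0109 without that one. *DLL1*, a Notch ligand of neural progenitors, had 1003, 985 and 1075 normalized counts in E5 6hPR + FGF2 RPE against 1458, 2471 and 1723 in E5 developing RPE, and 1459.8, 1203 and 1419 in E4 6hPR + FGF2 RPE against 1011, 901 and 848 in E4 developing RPE. It fell at E5 and rose at E4 (interaction -1.41 ± 0.23, adjusted p = 0.00361, and -1.20, adjusted p = 0.00316 without E5 developing replicate 2). The ligand *DLL4* (-0.80) and the Notch modifier *LFNG* (-0.54) were lost without 9 and 10 of the 12 libraries in turn, and the coactivator *MAML2* (0.83) was lost without replicate 2 of E4 developing RPE (adjusted p up to 0.0586). Without E5 developing replicate 2, 2 genes of the list were called below and 2 above, and without E5 developing replicate 3 there were 7 below.

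The markers of cell types beside the RPE were examined as whole lists. Of 23 markers of retinal neurons, 3 were called below and none above (13.0% and 0% against 2.42% and 3.14% of all genes), and their summed level was 24146 to 26792 in E5 6hPR + FGF2, 20062 to 46393 in E5 developing, 21823 to 26532 in E4 6hPR + FGF2 and 26465 to 28576 normalized counts in E4 developing RPE. The 3 were the ganglion cell factors *POU4F2* and *POU4F3* and the ganglion cell RNA-binding protein *RBPMS2*. *POU4F2* had 0, 4.81 and 0 normalized counts in E5 6hPR + FGF2 RPE against 8.36, 20.005 and 12.2 in E5 developing RPE, and 7.35, 8.61 and 7.55 in E4 6hPR + FGF2 RPE against 0, 0 and 0 in E4 developing RPE. These levels are close to the floor of 3 counts, so that its interaction of -7.65 is set by the pseudocount and no fold is given. *POU4F3* averaged 9.41 ± 0.889 in E5 6hPR + FGF2 RPE and 319 ± 471 in E5 developing RPE, its interaction of -8.17 was -6.67, adjusted p = 0.0402 without E5 developing replicate 2, and it was lost without each of 6 of the 12 libraries in turn (adjusted p up to 0.0694) and in a fit of the 12 libraries alone (adjusted p up to 0.0512). *RBPMS2* gave -1.12 ± 0.22, adjusted p = 0.0102. It averaged 644 ± 37.6 in E4 developing RPE and had 1125, 1052 and 1308 normalized counts in E5 developing RPE. Its lowest E5 developing value was thus in replicate 2, the library with high neural markers, and its source cells were not tested. The list had 3 called below and 2 above without E5 developing replicate 2, and 5 below without E5 developing replicate 3. Of 14 markers of retinal progenitors, *SIX6*, *HES5* and *DLL1* were called below (21.4% against 2.42%), with 5 below without E5 developing replicate 3, and the sums were 38257 to 44141 in E5 6hPR + FGF2, 28156 to 68920 in E5 developing, 47523 to 55140 in E4 6hPR + FGF2 and 25738 to 25963 in E4 developing RPE. The part of neural retina tissue in these results was not tested beyond the values without E5 developing replicate 2.

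Endothelial markers gave 3 calls below and none above of 10 tested (30% and 0% against 2.42% and 3.14% of all genes), with summed levels of 34343 to 38846 in E5 6hPR + FGF2, 40836 to 58379 in E5 developing, 36075 to 37983 in E4 6hPR + FGF2 and 27884 to 30932 in E4 developing RPE. None of the 10 was at 0 in any of these libraries. *PECAM1*, an endothelial adhesion molecule, had 3203, 3392 and 3173 normalized counts in E5 6hPR + FGF2 RPE against 3868, 3536 and 5177 in E5 developing RPE, and 4364, 4042 and 4838 in E4 6hPR + FGF2 RPE against 2759, 2628 and 2210.2 in E4 developing RPE. It rose at E4 with no call at E5 (interaction -1.15 ± 0.19, adjusted p = 0.00377). The angiopoietin receptor *TEK* (-0.998 ± 0.21, adjusted p = 0.0142) and its relative *TIE1* (-0.99) fell at E5 only, and *TIE1* was lost without replicate 2 of E4 developing RPE (adjusted p up to 0.0528). *CDH5*, the cadherin of endothelial junctions, was counted among the junction genes and had 19996, 20514 and 17645 normalized counts in E5 6hPR + FGF2 RPE against 28610.3, 27751 and 33132 in E5 developing RPE, and 18249, 20192 and 20389 in E4 6hPR + FGF2 RPE against 17696, 17462 and 16462 in E4 developing RPE. The E5 developing libraries were the highest and the fall was called at E5 only (interaction -0.81 ± 0.14, adjusted p = 0.00478). Without E5 developing replicate 2, 7 of the 10 endothelial markers were called below, with 5 without E5 developing replicate 1, 3 without E5 developing replicate 3 and 2 without E4 developing replicate 2. The interaction of *PECAM1* without E5 developing replicate 3 was -0.99, adjusted p = 0.0051.

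Of 20 periocular mesenchyme markers, 4 were called below and none above (20% and 0% against 2.42% and 3.14% of all genes), with summed levels of 137579 to 216375 in E5 6hPR + FGF2, 177881 to 263808 in E5 developing, 169571 to 198467 in E4 6hPR + FGF2 and 116865 to 131776 in E4 developing RPE. *ACTA2*, smooth muscle actin, had 22609.6, 22312 and 17510.5 normalized counts in E5 6hPR + FGF2 RPE against 20579, 16900.1 and 36798 in E5 developing RPE, and 21885, 22958 and 19325 in E4 6hPR + FGF2 RPE against 5413, 4615 and 5202 in E4 developing RPE. The E4 developing libraries were the low group and the E5 groups overlapped (interaction -2.25 ± 0.37, adjusted p = 0.00357). *TAGLN*, an actin-binding protein of contractile cells, had an interaction of -1.96, lost without each of 8 of the 12 libraries in turn (adjusted p up to 0.0877) and under 3 of the 13 other settings (adjusted p up to 0.0617). *DCN*, a small matrix proteoglycan (-1.48), was lost without each of 5 of the 12 libraries in turn (adjusted p up to 0.061) and in a fit of the 12 libraries alone (adjusted p up to 0.0615), and *COL3A1*, a fibrillar collagen (-1.44), was lost without each of 9 of the 12 libraries in turn (adjusted p up to 0.101) and under 4 of the 13 other settings (adjusted p up to 0.101). The list's count below ran from 1, among others without E5 developing replicate 3 and without E4 developing replicate 2, to 5 without E5 developing replicate 2. The interaction of *ACTA2* without E5 developing replicate 3 was -1.93, adjusted p = 0.00471. The leukocyte list gave 1 call of 18, above (5.56% against 3.14% of all genes), which was *CD74*, the invariant chain of MHC class II. It had 5129, 4856 and 4778 normalized counts in E5 6hPR + FGF2 RPE against 795, 682 and 867 in E5 developing RPE, and 1649, 1884 and 1062 in E4 6hPR + FGF2 RPE against 553, 504 and 604 in E4 developing RPE. It rose at both stages and further at E5 (interaction 1.23 ± 0.25, adjusted p = 0.0114), and the leukocyte sum was 13786 to 23560 in E5 6hPR + FGF2, 8635 to 11791 in E5 developing, 6993 to 11847 in E4 6hPR + FGF2 and 6965 to 7704 in E4 developing RPE. The part of endothelium, mesenchyme and leukocytes in the results was not tested. Markers of erythrocytes, lens and yolk sac or liver gave no call in the interaction with all libraries and the main limma settings, and under array weights 1 lens and 1 yolk sac or liver marker was called below.

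**Figure D5:**
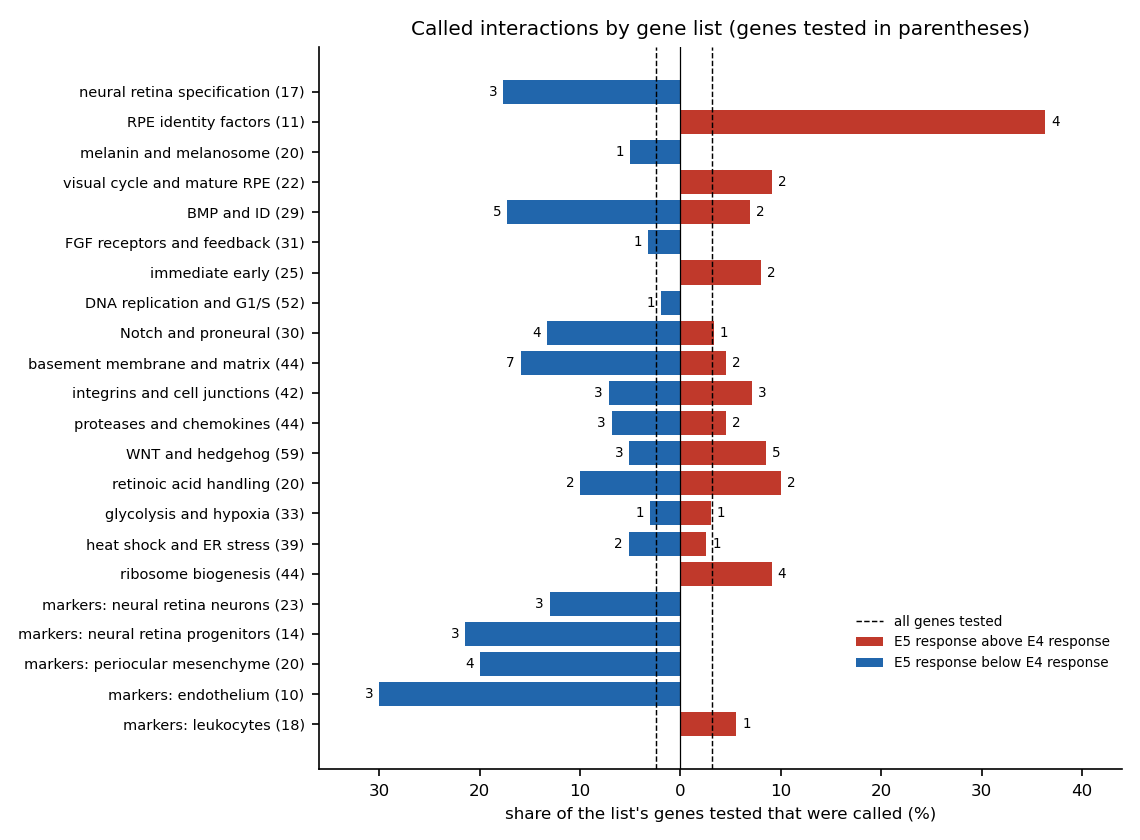
For each gene list with a called member, the bar to the right gives the share of its genes tested that were called with the E5 response above the E4 response and the bar to the left the share called with it below, in percent, with the number of genes at the bar's end and dashed lines at the shares over all genes tested (3.14% and 2.42%). RPE identity factors reach 36.4% on the right, and the endothelial markers reach 30% on the left.

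Matrix genes were called mostly below, 7 of 44 (15.9% against 2.42%), with 2 above (4.55% against 3.14%), and their median response was 0.03 at E5 and 0.31 at E4. *LAMA5*, a chain of basement membrane laminins, was 1 of the 2 above and had 38914, 35314 and 30297 normalized counts in E5 6hPR + FGF2 RPE against 15250.2, 8667 and 8423 in E5 developing RPE, and 12646, 13737 and 14501 in E4 6hPR + FGF2 RPE against 9425, 11492 and 10773 in E4 developing RPE. The 3 E5 6hPR + FGF2 libraries were above the other 9 (interaction 1.37 ± 0.26, adjusted p = 0.0082). *MATN2*, a matrilin, was the other (interaction 1.67 ± 0.36, adjusted p = 0.0143). *COL9A2*, a chain of the collagen of cartilage and vitreous, rose at E4 only (interaction -1.34), lost without replicate 2 of E4 developing RPE or replicate 1 of E5 6hPR + FGF2 RPE (adjusted p up to 0.0595). The 6 others below were *DCN*, the collagens *COL3A1*, *COL2A1* (-0.54), *COL5A1* (-0.67) and *COL8A1* (-2.32), and *SPARC*, a collagen-binding protein (-0.68), each of which lost its call without 3 or more of the 12 libraries in turn. None of the matrix genes was called below without E4 developing replicate 2, and 9 were without E5 developing replicate 2. *DCN* and *COL3A1* are also in the mesenchyme list, whose sums are given above.

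Integrins and junction genes were called 3 above and 3 below of 42 (7.14% each way against 3.14% and 2.42% of all genes), with 5 above without E5 developing replicate 1. *ITGA4*, an integrin chain for fibronectin and VCAM1, had 8499, 8830.2 and 11778 normalized counts in E5 6hPR + FGF2 RPE against 4042, 3099.8 and 3074 in E5 developing RPE, and 14285, 18305 and 23038 in E4 6hPR + FGF2 RPE against 1619, 1991 and 2171 in E4 developing RPE. It rose at both stages and less at E5 (interaction -1.74 ± 0.29, adjusted p = 0.00368). *NECTIN1*, an adherens junction molecule, had 5643, 5605 and 6319.9 normalized counts in E5 6hPR + FGF2 RPE against 5676, 4821 and 3833 in E5 developing RPE, and 3903, 4651 and 4166 in E4 6hPR + FGF2 RPE against 7662, 9793 and 8188 in E4 developing RPE. It fell at E4 with no call at E5 (interaction 1.32 ± 0.23, adjusted p = 0.00547). *MARVELD2*, the tight junction protein tricellulin, rose at E5 only (interaction 0.90 ± 0.19, adjusted p = 0.0138), and *ITGB5*, an integrin chain that RPE uses in phagocytosis together with the alpha v chain, fell at E5 only (interaction -0.59 ± 0.12, adjusted p = 0.013). The alpha v chain itself, *ITGAV*, was called above (1.06) and lost without each of 8 of the 12 libraries in turn (adjusted p up to 0.0819) and under 2 of the 13 other settings (adjusted p up to 0.0689). In the list of proteases, growth factors and chemokines, 2 of 44 were above and 3 below (4.55% and 6.82% against the same shares), with none above and 1 below without E4 developing replicate 2. The growth factor *TGFB3* fell at E5 and rose at E4 (interaction -0.91 ± 0.19, adjusted p = 0.0131), and the TGF beta-induced matrix protein *TGFBI* fell at E5 only (interaction -1.11), which was lost without replicate 2 of E4 developing RPE (adjusted p up to 0.0545). *EGFR*, the EGF receptor, rose at E5 only (interaction 1.02), lost without replicate 2 of E4 developing RPE or replicate 1 of E5 6hPR + FGF2 RPE (adjusted p up to 0.058) and in a fit of the 12 libraries alone (adjusted p up to 0.0521). *CXCR4*, a chemokine receptor, averaged 3805 ± 781 in E5 6hPR + FGF2 RPE and 884 ± 173 in E5 developing RPE, and 4889 ± 1062 in E4 6hPR + FGF2 RPE and 545 ± 50.9 in E4 developing RPE. It rose at both stages, and its interaction of -1.04 ± 0.29, adjusted p = 0.0468 was lost without each of 10 of the 12 libraries in turn (adjusted p up to 0.118) and under 7 of the 13 other settings (adjusted p up to 0.087). *PLA2G7*, a secreted phospholipase, had 4789, 4764 and 5319 normalized counts in E5 6hPR + FGF2 RPE against 13979, 12867 and 16644 in E5 developing RPE, and 5966, 4242 and 4829.9 in E4 6hPR + FGF2 RPE against 8177, 6922 and 8144 in E4 developing RPE. It fell at both stages and further at E5 (interaction -0.90 ± 0.18, adjusted p = 0.00915).

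Ribosome biogenesis genes were called above for 4 of 44 (9.09% against 3.14%) and below for none, with a median interaction of 0.20. In developing RPE 37 of the 44 were lower at E5 than at E4, and in 6hPR + FGF2 RPE 27 of 44 (11.1% and 12.8% of all genes). *NAT10*, an RNA acetyltransferase of the nucleolus, had 4978, 4642 and 5091 normalized counts in E5 6hPR + FGF2 RPE against 3906, 4310.1 and 3769 in E5 developing RPE, and 5797, 6257 and 5729 in E4 6hPR + FGF2 RPE against 7409, 7357 and 7667 in E4 developing RPE. It rose at E5 and fell at E4 without overlap between the groups at either stage (interaction 0.63 ± 0.09, adjusted p = 0.00189). *WDR43*, a processing factor of the small subunit, had an interaction of 0.54 ± 0.10, adjusted p = 0.00658. *BOP1* (0.56) and *UTP20* (0.61), both rRNA processing factors, were lost without 5 and 8 of the 12 libraries in turn. The count was 2 without E4 developing replicate 2 and 9 without E5 developing replicate 2. Genes of DNA replication and of mitosis were not called in this way although most of them responded at both stages. Of 52 replication and G1/S genes, 42 fell at E5 and 43 at E4 (13.7% and 10.2% of all genes), with median responses of -0.84 and -0.81. Only *GINS1*, a subunit of the replicative helicase, was called in the interaction (-0.78 ± 0.17, adjusted p = 0.016). That is 1.92% of the list against 2.42% of all genes. Under array weights 4 of the list were called below and 1 above, and without E5 developing replicate 3 there were 3 below. Of 52 mitosis genes, 37 fell at E5 and 50 at E4 (13.7% and 10.2% of all genes), with median responses of -0.51 and -0.70. None of them was called with all libraries and the main limma settings, while under array weights 1 was called in each direction.

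Among immediate early genes, 16 of 25 rose at E5 and 16 at E4 (15.1% and 9.82% of all genes), with median responses of 1.14 and 1.09. In the interaction 2 were called above (8% against 3.14% of all genes). *FOSL2*, a subunit of AP-1, had 871, 868 and 749 normalized counts in E5 6hPR + FGF2 RPE against 88.9, 68.0 and 68.4 in E5 developing RPE, and 442, 499.6 and 362 in E4 6hPR + FGF2 RPE against 95.7, 143 and 92.0 in E4 developing RPE. It rose at both stages and further at E5 (interaction 1.47 ± 0.30, adjusted p = 0.0121). *KLF10*, a zinc finger factor induced by TGF beta, had an interaction of 0.53 with neither response passing the test, and was lost without each of 8 of the 12 libraries in turn (adjusted p up to 0.102) and under 5 of the 13 other settings (adjusted p up to 0.09). *HIF1A*, the oxygen-regulated subunit of HIF-1, had 26502, 26238 and 23814 normalized counts in E5 6hPR + FGF2 RPE against 15078, 13002 and 11328 in E5 developing RPE, and 15453, 15197 and 14859 in E4 6hPR + FGF2 RPE against 12324, 13218 and 12954 in E4 developing RPE. Its rise was called at E5 only (interaction 0.72 ± 0.13, adjusted p = 0.0055). *P4HA2*, a collagen prolyl hydroxylase induced by HIF-1, rose at E4 only (interaction -0.89 ± 0.18, adjusted p = 0.0108). These were the called members of the 33 glycolysis and hypoxia genes, 1 in each direction (3.03% each way against 3.14% above and 2.42% below of all genes). Of 39 heat shock and ER stress genes, *CHAC1* and the small heat shock protein *HSPB8* (interaction -2.22 ± 0.43, adjusted p = 0.00911) were below, and *ASNS*, asparagine synthetase, was above (0.56), lost without each of 4 of the 12 libraries in turn (adjusted p up to 0.0608). The list's shares were 5.13% below and 2.56% above, against 2.42% and 3.14% of all genes. Of 23 cholesterol synthesis genes none was called with all libraries and the main limma settings. Under array weights 1 was above and 4 below, without E5 developing replicate 2 there were 3 above, and without E5 developing replicate 1 there were 3 below.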

How the data were processed

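The authors sequenced poly(A) RNA libraries (TruSeq Stranded mRNA), trimmed the reads, aligned them with STAR to GRCg6a, used StringTie for counts of Ensembl genes, removed genes below 10 raw counts and scaled by DESeq2 size factors. The deposited values are therefore a signal, normalized counts, in which 100% of values came out as whole reads (within 1e-06) after multiplication by a size factor. Tool versions and the use of strand in counting are not given in the sources used here. Genes with a sum under 10 were left out, and log2(normalized count + 0.5) was fitted with limma 3.58.1 (trend, R 4.3.3) on the means of the 6 groups over 18 libraries, with Benjamini-Hochberg adjustment, calls at 0.05 or less and the interaction as a contrast. Fold changes of low genes depend on the pseudocount on this scale and can be understated or overstated. The script was tested on simulated data. Alternatives were 13 other settings, including tests of the recovered reads with edgeR 4.0.16 and with DESeq2 1.42.0, and 12 fits without 1 library. Labels do not tie libraries to separate collections, so p-values measure the spread between pools.

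Named genes are, per direction, the 12 largest and the 8 of smallest adjusted p of the called genes that have a symbol, reach 50 in a group mean and have separated responses, the 6 largest with opposite responses, 3 called members of each list, and 12 genes that the study names for this comparison. Other called list members were added after their values were seen. Some genes that meet this rule are not reported here. The 27 gene lists (728 of 840 names matched by symbol) and the comparison were chosen with earlier results of these data known. A list gets counts and a median, and no test. For lists without a median interaction above, it was -0.29 (Notch and proneural), 0.14 (WNT and hedgehog), 0.06 (integrins and junctions) and 0.0045 (proteases). The median interaction was -0.47 for neural retina specification, -0.18 for matrix, 0.14 for immediate early, -0.08 for DNA replication and 0.16 for mitosis genes. It was 0.02 for glycolysis and hypoxia, 0.10 for heat shock and -0.18 for cholesterol genes. Among marker lists it was -1.24 for neurons, -1.23 for progenitors, -0.35 for mesenchyme, -0.73 for endothelium and 0.27 for leukocytes. Erythrocyte, lens and yolk sac or liver markers had -0.34, -0.37 and 0.48. No sequences or coordinates are given, because no genome of this build was used here.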

Additional observations from a re-analysis of the deposited data

Results flagged for a closer look

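The 2 stages differed in their response for 574 genes with the E5 response above the E4 response and for 442 with it below, and the difference itself was what limma tested, as the interaction term. The called genes named in the report are given here with that interaction on the log2 scale, sorted by the response called at each stage.

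Among genes with the E5 response above, the interaction was positive by definition. With a rise called at E5 only, it was 5.62 for *CPLX3*, 4.76 for *FAM237A*, 4.24 for *CALN1*, 2.50 for *WIF1*, 1.91 for *LRAT*, 1.67 for *MATN2*, 1.37 for *LAMA5*, 1.06 for *ITGAV*, 1.02 for *EGFR*, 0.99 for *RXRA*, 0.98 for *AXIN2*, 0.90 for *MARVELD2*, 0.83 for *MAML2*, 0.72 for *HIF1A*, 0.61 for *UTP20*, 0.56 for *BOP1* and 0.54 for *WDR43*. With a larger rise at E5, it was 6.05 for *CLCA2*, 5.33 for *OLFM4*, 4.67 for *C6orf58*, 4.63 for *C1S*, 4.47 for *gga-mir-147*, 4.35 for *MMP9*, 4.31 for *TMPRSS7*, 3.91 for *C15orf48*, 3.09 for *SLC2A11L1*, 2.00 for *STRA6*, 1.52 for *PARP9*, 1.47 for *FOSL2*, 1.23 for *CD74*, 0.84 for *ZNF503* and 0.56 for *ASNS*. With a rise at E5 and a fall at E4, it was 2.89 for *SLC38A8*, 2.55 for *SYT12*, 2.53 for *SCARA5*, 2.14 for *C1R*, 1.63 for *CPS1*, 1.52 for *PTPRU*, 1.30 for *NKD1*, 1.14 for *FERMT1* and 0.63 for *NAT10*. With a fall called at E4 only, it was 2.47 for *WNT2B*, 1.80 for *WNT5A*, 1.32 for *NECTIN1*, 1.05 for *OTX1*, 1.02 for *BMP6* and 0.75 for *SOX9*. With neither response called, it was 4.53 for *RIPPLY3* and 0.53 for *KLF10*.

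Among genes with the E5 response below, it was negative. With a fall called at E5 only, it was -8.74 for *KK34*, -4.69 for *TBX22*, -3.28 for *RXFP1*, -3.24 for *MSC*, -3.09 for *SLITRK3*, -2.32 for *COL8A1*, -2.28 for *AIFM3*, -1.49 for *RARRES1*, -1.37 for *CAVIN4*, -1.35 for *OLFM3*, -1.24 for *ID3*, -1.12 for *RBPMS2*, -1.11 for *CHRD*, -1.11 for *TGFBI*, -0.998 for *TEK*, -0.99 for *SFRP1*, -0.99 for *TIE1*, -0.88 for *FADS2*, -0.81 for *CDH5*, -0.80 for *DLL4*, -0.78 for *FZD4*, -0.67 for *COL5A1*, -0.62 for *TWSG1*, -0.59 for *ITGB5*, -0.54 for *COL2A1* and -0.54 for *LFNG*. With a larger fall at E5, it was -2.81 for *C1QTNF12*, -1.19 for *ID2*, -0.92 for *OCA2*, -0.90 for *PLA2G7* and -0.78 for *GINS1*. With a fall at E5 and a rise at E4, it was -7.65 for *POU4F2*, -6.38 for *HES5*, -3.25 for *IL15*, -2.58 for *CHAC1*, -2.51 for *NPTX2*, -2.36 for *MYL4*, -2.18 for *ID4*, -2.08 for *GUCY1A1*, -1.75 for *BAIAP2L1*, -1.48 for *DCN*, -1.41 for *DLL1* and -0.91 for *TGFB3*. With a rise called at E4 only, it was -8.17 for *POU4F3*, -5.51 for *MYBPC1*, -4.52 for *RGS5*, -4.34 for *SIX6*, -3.65 for *FGF1*, -2.25 for *ACTA2*, -2.22 for *HSPB8*, -1.44 for *COL3A1*, -1.34 for *COL9A2*, -1.20 for *ALDH1A2*, -1.15 for *PECAM1*, -0.89 for *P4HA2*, -0.75 for *SIX3* and -0.68 for *SPARC*. With a smaller rise at E5, it was -1.96 for *TAGLN*, -1.74 for *ITGA4*, -1.04 for *CXCR4* and -0.76 for *CDON*.

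The sizes for genes at or near 0 in a whole group, such as *CLCA2*, *CPLX3*, *OLFM4*, *C6orf58*, *MMP9*, *KK34*, *MYBPC1* and *POU4F2*, depend on the pseudocount.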

How the results depend on the processing

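None of the named genes changed sign under the 13 other settings, where tested, or without any of the 12 libraries. For genes with separated responses, the separation over all 12 libraries fixes the sign whichever library is left out. Those fits are therefore no check of their direction. Of the 110 called genes named, 58 kept their call under each of these, 69 under the settings alone and 65 without each library in turn, and *POU4F2* is in neither of the first counts because the filter on a mean of 10 and DESeq2 gave it no adjusted p. The number of called interactions, 1016 in all (574 above, 442 below), depended on the setting. It was 1629 with array weights (1008 above), 677 with the 12 libraries compared alone (379 above) and 1892 with DESeq2 on the recovered reads (999 above and 893 below), whereas edgeR on the same reads gave 912. Another pseudocount gave 1050 (1) and 1101 (5), no filter 1016, a mean of 10 or more 1078, TMM 1015, no trend 766 and the chromosome W covariate 891. Quantile normalization gave 989, of which 50.7% were above against 56.5%. Without single libraries the count ran between 446 (without E4 developing replicate 2) and 2273 (without E5 developing replicate 1), with 242 to 1500 above and 204 to 773 below, and 66.0% were above at the upper end. The cause of these differences was not tested. The counts called for the response at E5 (5261) and at E4 (3656) and for the stage difference in 6hPR + FGF2 (5398) and developing RPE (4015) stayed within 1.5 times of these values. The response counts lay closer together with array weights, at 5664 for E5 and 4952 for E4. The replicate number as a block gave 803 calls. Of 18 pairs of same-numbered libraries of different groups, 3 had a correlation over 0.1 (range -0.23 to 0.27) and 7 correlated best with their own number. These 7 held every pair of E4 developing with E4 6hPR + FGF2 RPE (0.27, 0.08 and 0.13). They also held every pair of E4 developing with E5 6hPR + FGF2 RPE (0.03, 0.12 and 0.05). The numbers were not taken as pairs in the main fit, and whether they pair within E4 was not tested. With 3 libraries in a group, differences of low genes were beyond the depth and replication of these data, and the median SE was 1.54 on the log2 scale in the lowest of 4 bins of genes by level.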
